A study of Rattus norvegicus with 50 samples.

Results

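The proliferation genes are 40 genes whose products copy DNA, drive the cell cycle or divide the cell. They were chosen by name, with earlier results of these data known. A member was measured where the array annotation gave a probe set to it alone. That was so for 31 of the 40, through 33 probe sets, out of 14557 genes named in the same way. Mki67, Top2a, Mcm5, Tk1, Birc5, Ube2c, Cenpe, Nusap1 and Anln had no such probe set, so these 9 were not analysed here, and the classical proliferation markers Mki67 and Top2a are among them.

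Lung RNA came from male Sprague-Dawley rats that were 9 weeks old at purchase. PEP rats inhaled the particles and gases of a laser printer (printer-emitted particles, PEP) and Air rats HEPA-filtered room air, with 1 rat to a chamber and 5 hours of exposure a day. There were 5 PEP and 5 Air lungs at each of days 1, 5 and 9, and 6 PEP and 6 Air lungs at day 21. A further 4 PEP and 4 Air lungs of day 21 came from rats that carried a radio telemetry implant. Strain and sex were shared by all groups, and the chamber of each rat is not given. A later day also means an older rat and more sessions, and these cannot be told apart. The experiment was run in more than 1 year and the labels do not give the year of a sample, so it could not be used as a batch. The labels do not state that each array is its own rat, and the p-values then cover only the spread between arrays, which may be technical.

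A cell that divides first loads the MCM helicase on DNA and makes nucleotides for the copy, then switches on cyclin-dependent kinases, and finally builds a spindle that pulls the chromosomes apart. Transcripts of replication genes peak around S phase and those of mitosis genes around G2 and M phase. Most cells of the adult lung rest, while epithelial, endothelial and mesenchymal cells divide in the growing lung and after injury. In whole lung, fewer dividing cells and less RNA of these genes per cell cannot be told apart.

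The 50 arrays had medians of 4.92 to 5.11 on the log2 scale. The defining markers of lung were present: Sftpc, the surfactant protein C gene of alveolar type 2 cells, had group means of 13.08 to 13.16, and the lowest group mean of any measured type 1 cell marker was 10.85. The free-text description in the labels names blood instead. PEP lung 1 of day 1 stood apart. Its 6 hepatocyte markers averaged 9.29, against 4.80 to 5.34 in the other 4 PEP lungs and 4.60 to 5.11 in the 5 Air lungs of day 1. Calls that ended without it are given with and without it.

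**Figure D1:**
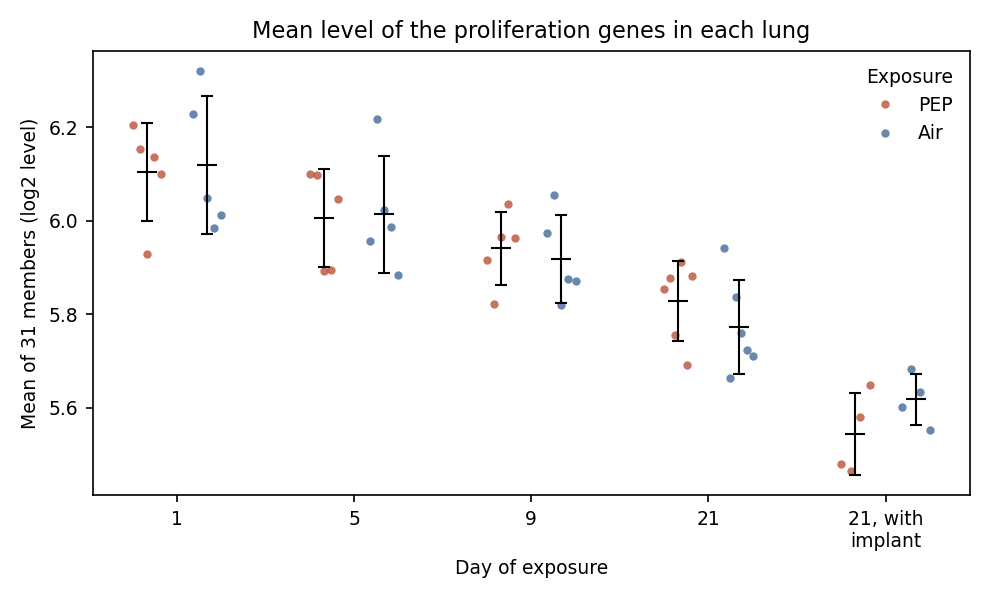
Mean log2 level of the 31 measured members in each lung (1 dot per lung) by day of exposure, PEP lungs in red and Air lungs in blue, with the group mean and SD as black bars. The mean is 5.83 ± 0.09 in PEP and 5.77 ± 0.10 in Air lungs at day 21, and 6.10 ± 0.11 and 6.12 ± 0.15 at day 1.

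The proliferation genes were lower at day 21 than at day 1 in both arms. The mean of the 31 members in PEP lungs was 6.10 ± 0.11 at day 1, 6.01 ± 0.10 at day 5, 5.94 ± 0.08 at day 9 and 5.83 ± 0.09 at day 21. In Air lungs it was 6.12 ± 0.15, 6.01 ± 0.13, 5.92 ± 0.09 and 5.77 ± 0.10 at the same days (SD over 5, 5, 5 and 6 lungs in each arm). The PEP lungs of day 21 lay at 5.69 to 5.91, against 5.93 to 6.20 at day 1. The Air lungs of day 21 lay at 5.66 to 5.94, against 5.98 to 6.32 at day 1. In neither arm did the lungs of day 21 overlap with those of day 1. The median log2 difference of the 31 members between day 21 and day 1 was -0.30 in PEP lungs and -0.33 in Air lungs, where the median over all 14557 genes was -0.0036 and -0.0057. In PEP lungs 30 of 31 members were lower by the fit, and in Air lungs 29 of 31.

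Single genes were tested with limma, with p adjusted over all genes fitted and a call at an adjusted p below 0.05. Of the 31 members 26 passed the filter on variance. The 5 that did not were Mcm2, Mcm4, Mcm6, Pcna and Tyms, all replication genes, and their values come from the fit of all 14557 genes. In PEP lungs 6 of 26 members differed between day 21 and day 1, all 6 lower, against 6.93% of the 8202 genes called in either direction and 5.3% called lower. In Air lungs 11 of 26 did, all 11 lower, against 21% called in either direction and 11% called lower. The 6 members called in PEP lungs were 6 of the 11 called in Air lungs. In the fit of all 14557 genes 7 of 31 were called in PEP lungs (6.8% of all genes) and 13 of 31 in Air lungs (19.2%). Leaving out 1 lung moved the PEP count as low as 2 without PEP lung 4 of day 1 (417 of the 8202 genes called). It was 3 without PEP lung 5 of day 21 (532 called), where all lungs gave 568. The Air count went as low as 7 without Air lung 2 of day 1 (1348 called) or Air lung 5 of day 21 (1433 called), where all lungs gave 1725. Without PEP lung 1 of day 1 the PEP count was 5 (the count over all genes is not given here).

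Ccna2, cyclin A2, which carries cells through S phase and into mitosis, had the smallest p of the members in both arms. Its log2 levels in PEP lungs were 5.44, 5.70, 5.23, 5.63, 5.07 and 5.48 at day 21, against 5.87, 6.08, 5.84, 6.31 and 6.0 at day 1. In Air lungs they were 5.56, 4.93, 5.53, 5.42, 5.21 and 5.25 at day 21, against 6.02, 6.24, 6.08, 5.87 and 6.05 at day 1. In both arms every lung of day 21 lay below every lung of day 1. The log2 difference was -0.63 ± 0.13 in PEP lungs (SE, adjusted p = 0.000981) and -0.73 ± 0.13 in Air lungs (adjusted p = 8.56e-05). The group means at days 5 and 9 lay in between, at 5.79 ± 0.03 and 5.69 ± 0.14 in PEP lungs and 5.73 ± 0.20 and 5.65 ± 0.24 in Air lungs.

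Ttk, the MPS1 kinase of the spindle checkpoint, was at 3.58, 4.64, 4.91, 4.05, 3.58 and 4.43 in PEP lungs of day 21, against 4.62, 4.78, 4.89, 5.10 and 4.74 at day 1. Here the lungs overlapped, and the difference was -0.62 ± 0.19 (adjusted p = 0.0357). That call ended on leaving out any 1 of 7 lungs, with the highest adjusted p, 0.150, without PEP lung 5 of day 21. In Air lungs it was at 4.08, 3.92, 3.53, 3.83, 4.35 and 3.68 at day 21, against 5.14, 4.96, 4.83, 4.49 and 4.60 at day 1. These lungs did not overlap (-0.87 ± 0.20, adjusted p = 0.00116).

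Plk1, the polo-like kinase that acts at mitotic entry and spindle assembly, was lower at day 21 in both arms. PEP lungs held 6.10, 6.05, 5.87, 5.99, 5.87 and 5.92 at day 21, against 6.62, 6.52, 6.10, 6.41 and 6.56 at day 1, without overlap (-0.49 ± 0.12, adjusted p = 0.00799). Air lungs held 6.21, 6.21, 5.70, 5.47, 5.96 and 5.67 at day 21, against 6.19, 6.67, 6.47, 6.26 and 6.22 at day 1, with overlap (-0.49 ± 0.13, adjusted p = 0.00425). At days 5 and 9 Plk1 averaged 6.20 ± 0.16 and 6.42 ± 0.05 in PEP lungs and 6.40 ± 0.22 and 6.08 ± 0.28 in Air lungs.

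Foxm1, the transcription factor that switches on G2 and M phase genes, averaged 5.55 ± 0.24 at day 21 and 5.94 ± 0.20 at day 1 in PEP lungs, which did not pass (-0.41 ± 0.15, adjusted p = 0.0793) and passed without PEP lung 4 of day 21 (adjusted p = 0.0372). In Air lungs its levels were 5.74, 5.13, 4.997, 5.55, 5.50 and 4.84 at day 21, against 5.91, 5.97, 5.99, 5.94 and 5.95 at day 1. The Air lungs of day 1 lay close together (SD 0.03) and above all of those of day 21 (SD 0.35). The difference in Air lungs was -0.66 ± 0.15 (adjusted p = 0.00121).

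Tpx2, which activates Aurora A and nucleates spindle microtubules, fell by 0.60 ± 0.18 in PEP lungs (5.03 ± 0.20 at day 21 and 5.64 ± 0.47 at day 1, adjusted p = 0.0283) and by 0.74 ± 0.18 in Air lungs (4.99 ± 0.39 at day 21 and 5.73 ± 0.28 at day 1, adjusted p = 0.00288). The PEP call ended without PEP lung 1 of day 1, the lung with hepatocyte markers (adjusted p = 0.0556), and without any 1 of 4 further PEP lungs. Melk, a kinase made by dividing cells, was at 3.87 ± 0.16 at day 21 and 4.30 ± 0.24 at day 1 in PEP lungs (-0.40 ± 0.16, adjusted p = 0.130). In Air lungs Melk fell by 0.47 ± 0.17 (3.92 ± 0.29 at day 21 and 4.39 ± 0.20 at day 1, adjusted p = 0.0372), a call that ended on leaving out any 1 of 6 Air lungs.

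**Figure D2:**
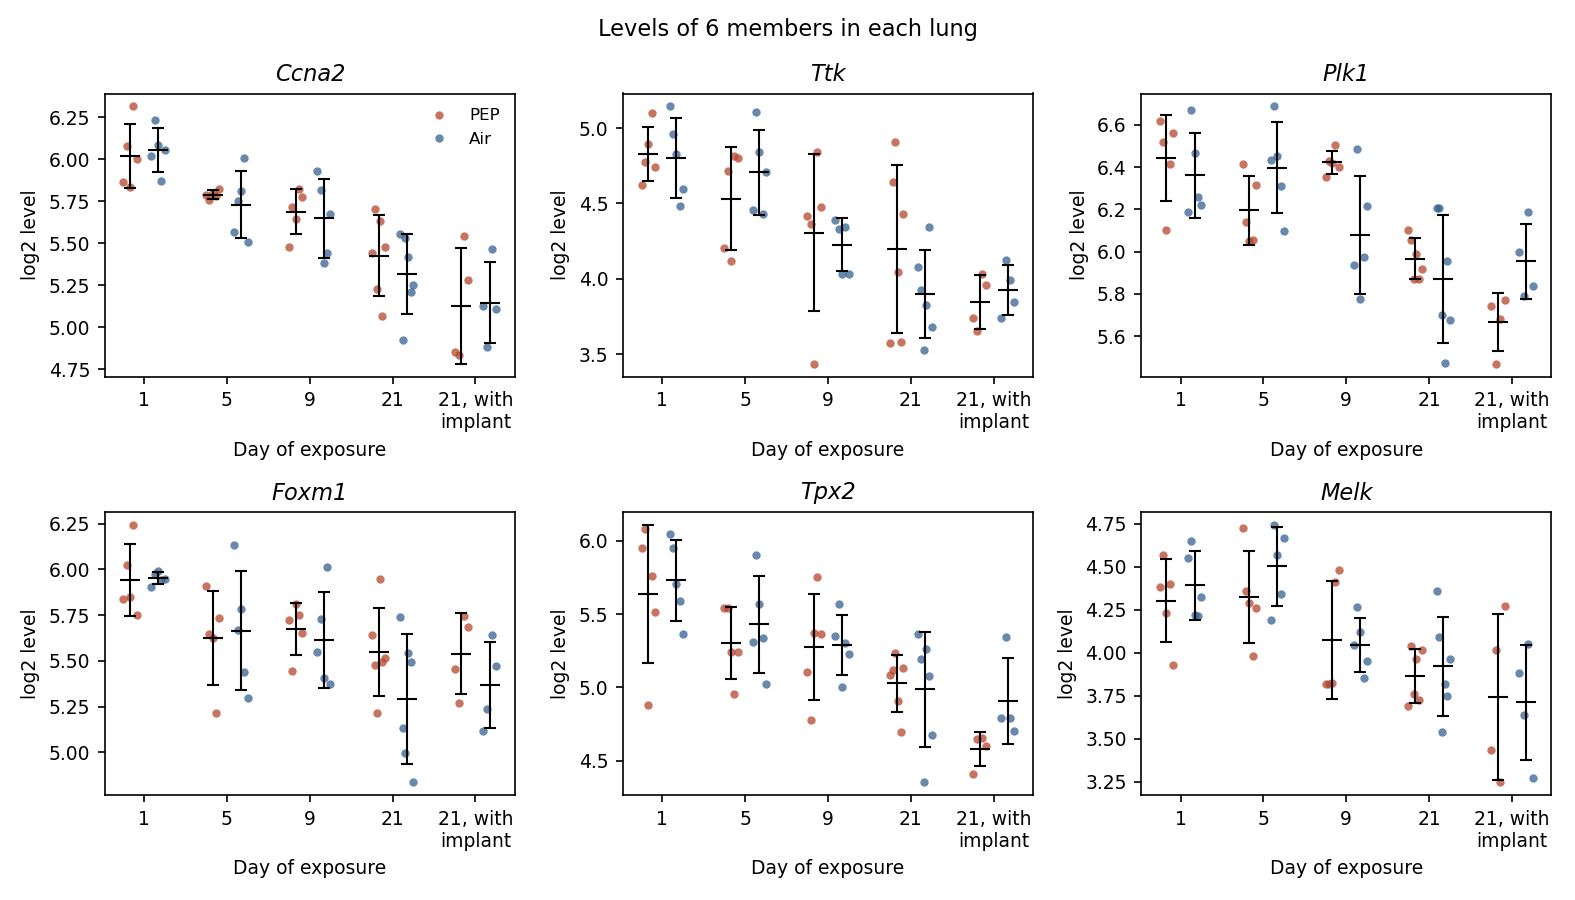
Log2 levels of Ccna2, Ttk, Plk1, Foxm1, Tpx2 and Melk in each lung (1 dot per lung) by day of exposure, PEP in red and Air in blue, with group means and SD as black bars. Ccna2 averages 5.43 in PEP and 5.31 in Air lungs at day 21, and 6.02 and 6.05 at day 1.

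Replication genes differed among themselves. The 7 measured had a median log2 difference of -0.11 in PEP lungs, with 1 called lower, and -0.30 in Air lungs, with 3 called lower. In the fit of all genes 5.15% and 11.7% of all genes were called lower. Rrm2, the small subunit of ribonucleotide reductase, which limits the supply of deoxynucleotides, was called in both arms. PEP lungs held 6.53, 6.43, 5.88, 6.48, 6.26 and 5.70 at day 21, against 6.63, 6.95, 6.38, 7.45 and 6.85 at day 1 (-0.72 ± 0.21, adjusted p = 0.0234). Air lungs held 6.05, 5.12, 5.89, 5.74, 6.51 and 5.95 at day 21, against 6.80, 7.12, 6.38, 6.68 and 6.43 at day 1 (-0.74 ± 0.22, adjusted p = 0.00986). The PEP call ended on leaving out PEP lung 4 of day 1 (adjusted p = 0.116) or any 1 of 3 further PEP lungs, and with equal array weights (adjusted p = 0.0611). Mcm2 and Mcm4, subunits of the replicative helicase, differed in PEP lungs by -0.23 ± 0.11 and -0.07 ± 0.10 (adjusted p = 0.206 and 0.746). In Air lungs they fell by 0.48 ± 0.11 and 0.33 ± 0.10 (adjusted p = 0.00192 and 0.0151).

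The other 4 measured replication genes did not pass in either arm between day 21 and day 1. Mcm6, a further helicase subunit, averaged 6.41 ± 0.22 in PEP and 6.42 ± 0.24 in Air lungs at day 21, against 6.50 ± 0.09 and 6.53 ± 0.20 at day 1. Tyms, thymidylate synthase, averaged 8.08 ± 0.21 and 7.98 ± 0.06 at day 21, against 8.14 ± 0.14 and 8.15 ± 0.19 at day 1. Pcna, the sliding clamp of DNA polymerases, which also serves DNA repair in resting cells, differed by -0.02 ± 0.07 in PEP and -0.04 ± 0.07 in Air lungs. Mcm3 differed by -0.16 ± 0.14 and -0.29 ± 0.14.

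The 7 cyclins, kinases and controls were all lower at day 21 by the fit in each arm. Of them 1 was called in PEP and 3 in Air lungs, against 5.3% and 11% of all genes called lower. Cdk1, the kinase that starts mitosis, was at 4.95 ± 0.16 in PEP and 4.88 ± 0.36 in Air lungs at day 21, against 5.26 ± 0.27 and 5.23 ± 0.21 at day 1, which did not pass (adjusted p = 0.300 and 0.126). Its partner Ccnb1, cyclin B1, was at 4.77 ± 0.16 in PEP and 5.15 ± 0.43 in Air lungs at day 21, against 5.26 ± 0.47 and 5.53 ± 0.25 at day 1 (adjusted p = 0.183 and 0.0784). The Ccnb1 difference in Air lungs passed without Air lung 5 of day 1 (adjusted p = 0.0292) or Air lung 3 of day 21 (adjusted p = 0.0466). Ccnb2, cyclin B2, and Ccne2, cyclin E2, which acts at the entry into S phase, differed by -0.20 ± 0.15 and -0.10 ± 0.12 in PEP lungs and by -0.23 ± 0.16 and -0.11 ± 0.13 in Air lungs.

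Of the 6 spindle motors and microtubule proteins 2 were called lower in PEP lungs and 5 in Air lungs, against 5.3% and 11% of all genes. That this differs between the arms was not tested. Kif11, the Eg5 motor that separates the spindle poles, averaged 5.11 ± 0.23 at day 21 and 5.35 ± 0.22 at day 1 in PEP lungs (-0.22 ± 0.15, adjusted p = 0.432). In Air lungs it averaged 4.89 ± 0.20 at day 21 and 5.45 ± 0.40 at day 1 (-0.56 ± 0.15, adjusted p = 0.00628), a call that ended without Air lung 2 of day 1 (adjusted p = 0.0662). Kif20a, a motor of the late spindle, fell by 0.55 ± 0.16 in PEP lungs (adjusted p = 0.0294) and by 0.55 ± 0.17 in Air lungs (adjusted p = 0.0154). Its PEP call ended without PEP lung 4 of day 1 (adjusted p = 0.117) or any 1 of 3 PEP lungs of day 21. Kif23, a motor of the spindle midzone, and Kif2c, which depolymerizes microtubules at centromeres, fell in Air lungs by 0.39 ± 0.12 and 0.46 ± 0.15, and differed in PEP lungs by -0.29 ± 0.11 and -0.38 ± 0.15 (adjusted p = 0.116 and 0.122).

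Checkpoint, kinetochore, anaphase and cytokinesis genes other than Ttk and Plk1 had no call between day 21 and day 1 among the 26 filtered members. Bub1, a checkpoint kinase, averaged 5.59 ± 0.28 in PEP and 5.77 ± 0.21 in Air lungs at day 21, against 5.93 ± 0.21 and 5.97 ± 0.11 at day 1. Ndc80, which ties kinetochores to microtubules, was at 5.61 ± 0.21 in PEP and 5.50 ± 0.23 in Air lungs, against 5.96 ± 0.20 and 5.84 ± 0.26. Cdc20, the activator of the anaphase-promoting complex, was at 5.51 ± 0.16 and 5.55 ± 0.35, against 5.98 ± 0.20 and 5.84 ± 0.32. Its PEP difference, -0.44 ± 0.15 (adjusted p = 0.0586), passed in the fit of all genes (-0.45 ± 0.14, adjusted p = 0.0463). Bub1b, the checkpoint protein BUBR1, and the kinetochore proteins Nuf2 and Cenpf differed by -0.27 ± 0.14, -0.28 ± 0.18 and -0.28 ± 0.15 in PEP lungs and by -0.24 ± 0.15, -0.22 ± 0.18 and -0.22 ± 0.15 in Air lungs. Racgap1, which guides the cleavage furrow, differed by -0.33 ± 0.13 in PEP and -0.23 ± 0.13 in Air lungs (adjusted p = 0.103 and 0.215).

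**Figure D3:**
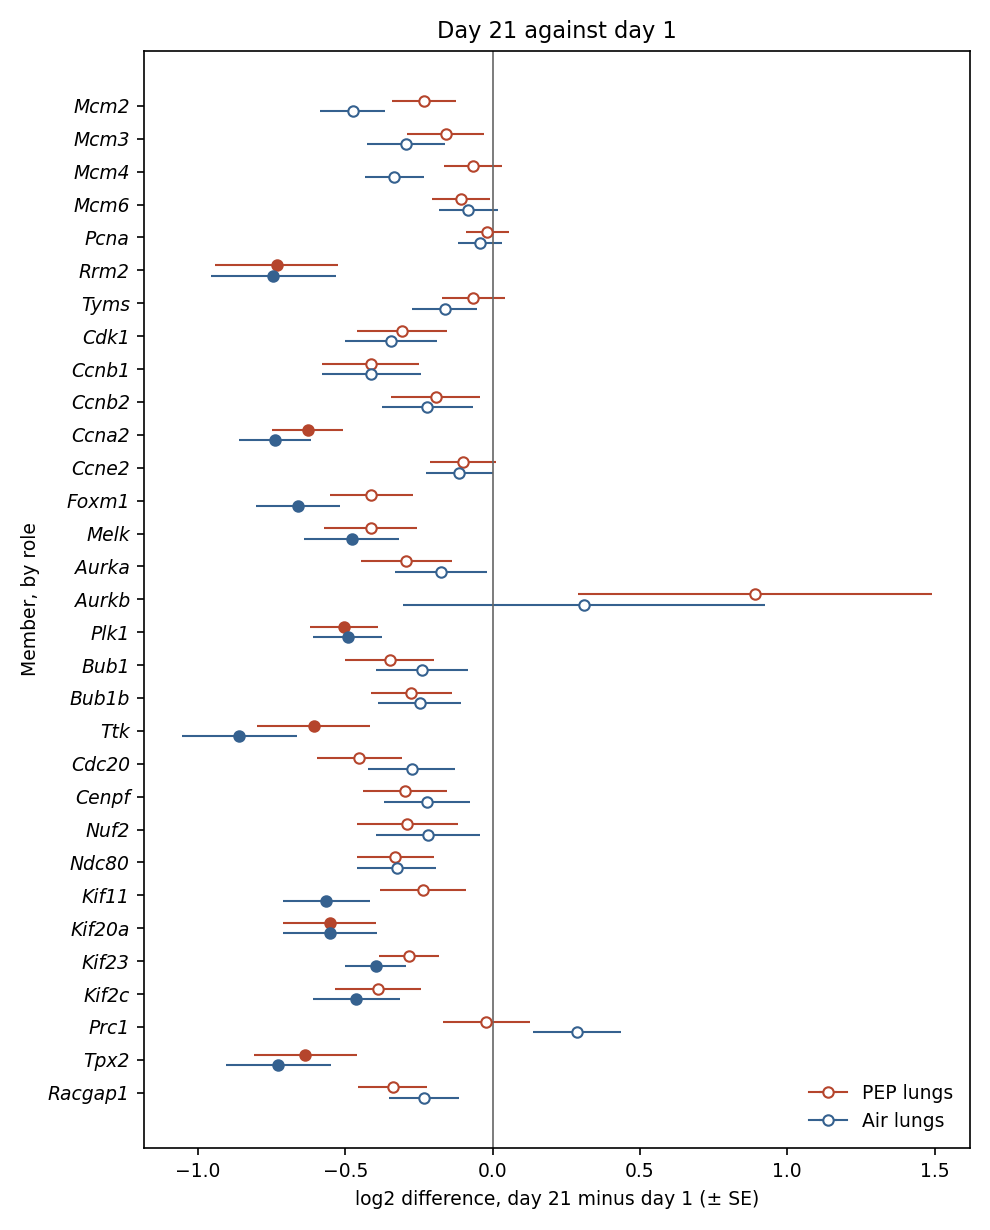
Log2 difference ± SE between day 21 and day 1 for each of the 31 measured members, in PEP lungs (red, upper of each pair) and Air lungs (blue, lower), from the fit of all 14557 genes. Filled dots had an adjusted p below 0.05 in the fit of the 8202 genes past the variance filter. In PEP lungs 30 of 31 members lie left of 0 and in Air lungs 29.

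Over whole groups, 3 members lay lower in every PEP lung of day 21 than in any of day 1 (Ccna2, Plk1 and Racgap1), where 3.66% of all genes did. In Air lungs 4 did (Ccna2, Foxm1, Ttk and Kif20a), where 5.78% of all genes did. Day 21 had the lowest of the 4 day means for 20 of 31 members in PEP and 25 in Air lungs, against 28.8% and 32.3% of all genes. Each day mean lay below that of the day before for 10 members in PEP and 13 in Air lungs, against 6.59% and 5.35% of all genes.

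In a single F test over the 4 days, 2 of 26 members differed in PEP lungs, Ccna2 and Plk1 (adjusted p = 0.00797 and 0.0233), against 4.82% of all genes. In Air lungs 7 did, against 18.5% of all genes. They were Ccna2 (adjusted p = 0.000814), Ttk, Plk1, Foxm1, Tpx2, Melk and Kif11 (adjusted p = 0.0443). In the fit of all genes the counts were 2 of 31 in PEP (5.12% of all genes) and 12 of 31 in Air lungs (17.6%). The PEP count was 1 without PEP lung 5 of day 1 (320 of the 8202 genes called), lung 5 of day 21 (358) or lung 6 of day 21 (312). It was 4 without PEP lung 3 of day 1 (389), where all lungs gave 395.

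Between neighbouring days limma called 0 of 26 members in either arm, where it called 0.134% of all genes in PEP and 3.76% in Air lungs between days 5 and 1, 0% and 0.0366% between days 9 and 5, and 1.27% and 10% between days 21 and 9. At an unadjusted p below 0.05 stood 2 of 26 members in PEP and 2 in Air lungs between days 5 and 1, where 13.6% and 14.9% of all genes did. Between days 9 and 5 there were 1 in PEP and 4 in Air lungs (6.61% and 14% of all genes). Between days 21 and 9 there were 5 in PEP and 7 in Air lungs (11.4% and 23% of all genes). Robust moderation also called 0 members in these 6 steps. The fit of all genes called 1 member between days 21 and 9 in PEP lungs, Plk1 (-0.47 ± 0.12, adjusted p = 0.0430, 1.07% of all genes called), and 2 in Air lungs, Pcna (-0.29 ± 0.08) and Mcm4 (-0.36 ± 0.10, 10.6% of all genes called).

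The members nearest to a call in these steps among the 26 past the variance filter were the following. For days 5 and 1 they were Rrm2 (-0.59 ± 0.21) and Foxm1 (-0.33 ± 0.15) in PEP lungs, and Ccnb1 (-0.43 ± 0.17) and Ccna2 (-0.29 ± 0.13) in Air lungs. For days 9 and 5 they were Racgap1 (-0.29 ± 0.14) and Bub1b (-0.30 ± 0.16) in PEP lungs, and Melk (-0.45 ± 0.17, adjusted p = 0.215) and Plk1 (-0.34 ± 0.13) in Air lungs. In the fit of all genes Pcna was the nearest there, at 0.26 ± 0.08 (adjusted p = 0.129). For days 21 and 9 they were Plk1 (-0.47 ± 0.13, adjusted p = 0.0593) and Ccnb1 (-0.58 ± 0.18) in PEP lungs, and Ndc80 (-0.36 ± 0.15, adjusted p = 0.109) and Ccna2 (-0.33 ± 0.13) in Air lungs.

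Many cell cycle genes share short words in their promoters. In mammals the cell cycle homology region (CHR, here TTTGAA or TTCGAA) and CCAAT boxes mark many G2 and M phase genes, and E2F words (here TTTCGCGC, TTTGGCGC, TTTCCCGC, GGCGGGAA or GCGCGAAA) mark many S phase genes. RefSeq promoters on GRCr8, from 250 bases before to 50 after an annotated start, were given for 23 of the 31 measured members. They came in 24 windows, since Kif2c has 2. For Ttk, Kif23, Aurka, Kif11, Nuf2 and 1 of the 2 Kif2c windows the whole window lay inside the span of the gene. The start used there was thus not the outermost. Mcm4, Rrm2, Ccna2, Ccne2, Foxm1, Aurkb, Tpx2 and Racgap1 had no entry. Both strands were searched. A CHR word was in 12 of 24 windows (50%, against 19.7% of 33469 promoters), CCAAT in 14 (58.3%, against 37.5%) and an E2F word in 6 (25%, against 3.17%). Of the 19 windows of cycle and division genes 11 held a CHR word and 2 an E2F word, and of the 5 windows of replication genes 1 held a CHR word and 4 an E2F word. A match is of letters only and was not measured as a site.

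The promoters of Plk1, Ttk, Kif23 and Mcm6 are shown as picked examples. Their words stand in capitals (CHR, CCAAT and E2F on either strand, 5′ to 3′ along the gene, GRCr8). Plk1, Ttk and Kif23 were called lower at day 21 in Air lungs and Mcm6 was not.
Plk1, chr1:186147408-186147707, plus strand: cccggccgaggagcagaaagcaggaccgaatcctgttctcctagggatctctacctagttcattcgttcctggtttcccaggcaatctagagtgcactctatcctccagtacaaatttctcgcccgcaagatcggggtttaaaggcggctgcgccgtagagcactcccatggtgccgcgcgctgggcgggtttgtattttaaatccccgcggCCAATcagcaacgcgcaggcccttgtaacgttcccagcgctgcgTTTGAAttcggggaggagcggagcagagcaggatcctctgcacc
Ttk, chr8:93634389-93634688, plus strand: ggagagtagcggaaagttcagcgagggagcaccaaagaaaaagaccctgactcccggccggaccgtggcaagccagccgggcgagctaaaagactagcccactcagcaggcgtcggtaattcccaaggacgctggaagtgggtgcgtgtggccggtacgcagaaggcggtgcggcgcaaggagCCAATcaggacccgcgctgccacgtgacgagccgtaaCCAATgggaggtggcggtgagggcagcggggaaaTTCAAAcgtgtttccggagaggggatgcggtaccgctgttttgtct
Kif23, chr8:71320535-71320834, minus strand: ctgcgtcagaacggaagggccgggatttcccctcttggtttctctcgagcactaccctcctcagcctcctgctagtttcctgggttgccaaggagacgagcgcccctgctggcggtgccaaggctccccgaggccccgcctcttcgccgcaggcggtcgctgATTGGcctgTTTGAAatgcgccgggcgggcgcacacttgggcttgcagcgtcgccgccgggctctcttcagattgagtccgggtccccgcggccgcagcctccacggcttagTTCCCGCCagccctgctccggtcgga
Mcm6, chr13:42404303-42404602, minus strand: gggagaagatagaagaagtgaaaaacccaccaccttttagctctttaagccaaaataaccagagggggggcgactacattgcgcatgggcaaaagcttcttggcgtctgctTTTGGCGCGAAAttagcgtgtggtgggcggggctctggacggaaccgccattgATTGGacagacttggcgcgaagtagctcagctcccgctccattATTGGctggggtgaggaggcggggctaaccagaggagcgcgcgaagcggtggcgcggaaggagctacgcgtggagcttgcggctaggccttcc
Plk1 and Ttk carry a CHR word just after the start used for the window and CCAAT before it. Kif23 holds all 3 kinds of word. Mcm6 holds CCAAT and overlapping E2F words, and no CHR word is in its window. Of the members not shown, Kif11, Kif20a, Kif2c and Melk were called lower in Air lungs and held no CHR word. Bub1b, Ccnb2, Cdc20, Cdk1, Cenpf, Ndc80, Nuf2 and Prc1 held a CHR word and were not called. Mcm2 held a CHR word and was called, and Aurka, Bub1, Ccnb1, Mcm3, Pcna and Tyms had neither. Whether the words go with the calls was not tested.

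Aurkb in both arms and Prc1 in Air lungs were the members that were not lower at day 21 by the fit of all genes. Aurkb, Aurora B, the kinase of the chromosomal passenger complex, ranged from 5.98 to 10.62 over the 50 lungs with a variance of 1.13, and the next highest variance of a member was 0.23. PEP lungs held 10.08, 7.91, 9.35, 8.45, 8.49 and 10.20 at day 21, against 8.70, 8.81, 7.08, 6.71 and 9.34 at day 1 (0.90 ± 0.58, adjusted p = 0.394). Air lungs held 8.34, 8.42, 10.62, 8.18, 7.47 and 10.16 at day 21, against 8.71, 8.25, 9.54, 7.91 and 8.58 at day 1 (0.30 ± 0.60, adjusted p = 0.778). The lungs overlapped in both arms, and the sign in Air lungs turned without Air lung 3 of day 21 (-0.072). Aurka, Aurora A, which organizes the spindle poles, differed by -0.30 ± 0.16 in PEP and -0.17 ± 0.16 in Air lungs, and Prc1, which bundles midzone microtubules, by -0.01 ± 0.15 and 0.29 ± 0.16. Over the 50 lungs, with group means removed, the correlation with the mean of the other members was -0.15 for Aurkb, -0.18 for Aurka and 0.07 for Prc1, as a description.

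**Figure D4:**
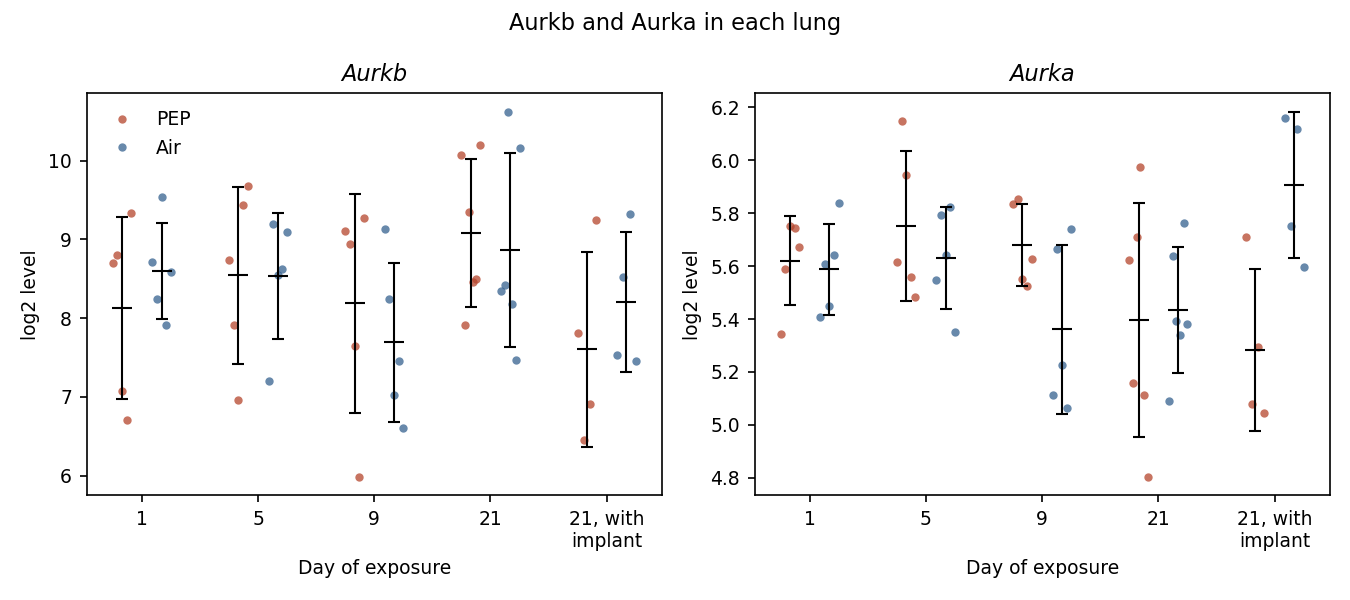
Log2 levels of Aurkb and Aurka in each lung (1 dot per lung) by day of exposure, PEP in red and Air in blue, with group means and SD as black bars. Aurkb spans 5.98 to 10.62, and Aurka averages 5.28 in implanted PEP and 5.91 in implanted Air lungs.

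Between PEP and Air lungs of the same day limma called 0 of 26 members, where it called 0% of all genes at day 1, 0% at day 5, 0% at day 9, 0.219% at day 21 and 0.0122% at day 21 with implant. At an unadjusted p below 0.05 stood 1 of 26 members at day 1 (6.55% of all genes), 1 at day 5 (5.38%), 1 at day 9 (5.15%), 0 at day 21 (14.3%) and 1 at day 21 with implant (5.58%). Robust moderation called 0 members in each. The median log2 difference of the 31 members was -0.01, -0.04, 0.01 and 0.08 at days 1, 5, 9 and 21, and -0.06 with implant. Each of these 5 medians took both signs over the alternatives run. The F test of an exposure effect that changes over days 1 to 21 called 0 of 26 members (0% of all genes), and 2 stood at an unadjusted p below 0.05 (7.99% of all genes), with Plk1 and Ccnb1 nearest to a call (adjusted p = 0.612 for both). With an SE of 0.16 for Ccnb1 at day 1, this does not show that the arms were alike.

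Among the 26 past the variance filter, those nearest to a call at day 1 were Ccnb1 and Kif23. Ccnb1 was at 5.95, 5.42, 5.21, 4.96 and 4.73 in PEP lungs, against 5.70, 5.82, 5.50, 5.49 and 5.16 in Air lungs (-0.37 ± 0.16, adjusted p = 0.71), and Kif23 differed by -0.17 ± 0.11. At day 5 they were Cenpf (-0.32 ± 0.16) and Plk1 (-0.24 ± 0.13). At day 9 Plk1 was at 6.36, 6.43, 6.42, 6.51 and 6.40 in PEP lungs, against 5.94, 6.49, 5.78, 5.97 and 6.22 in Air lungs (0.33 ± 0.13, adjusted p = 0.889), and Aurka differed by 0.33 ± 0.17. The sign for Plk1 was thus not the same at days 5 and 9. At day 21 Ccnb1 differed by -0.33 ± 0.17 (adjusted p = 0.378) and Foxm1 by 0.24 ± 0.15. In the fit of all genes 3 of 31 members stood at an unadjusted p below 0.05 at day 21, where 2153 of 14557 genes did. They were Mcm2, at 0.27 ± 0.11 (adjusted p = 0.245), Pcna, at 0.16 ± 0.07, and Mcm4, at 0.21 ± 0.10. With implant Aurka was at 5.71, 5.08, 5.29 and 5.04 in PEP lungs, against 6.16, 5.75, 6.12 and 5.60 in Air lungs (-0.61 ± 0.19, adjusted p = 0.720), and Plk1 differed by -0.29 ± 0.15.

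Among all 10 groups the lowest mean of a member was that of the implanted PEP lungs for 17 of 31 members and that of the implanted Air lungs for 9. The member mean was 5.48, 5.46, 5.58 and 5.65 in the implanted PEP lungs, all below the 5.69 to 5.91 of the PEP lungs of day 21 without implant. It was 5.60, 5.68, 5.63 and 5.55 in the implanted Air lungs, against 5.66 to 5.94 without, and these overlapped. With implant 28 of 31 members were lower by the fit in PEP lungs, with a median of -0.27, and 23 in Air lungs, with a median of -0.16. The medians over all genes were 0.0036 and -0.0155. The 6 mitotic kinase and checkpoint members had medians of -0.33 in PEP and -0.05 in Air lungs, and the 7 replication members -0.15 and 0.05.

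In PEP lungs 1 of 26 members was called with implant, lower, against 3.8% of all genes in either direction and 1.06% lower. It was Ndc80, at 5.30, 4.69, 5.34 and 5.10 with implant, against 5.73, 5.41, 5.34, 5.53, 5.78 and 5.87 without (-0.55 ± 0.16, adjusted p = 0.0332). These lungs met at the upper end of the implanted ones. The call ended without implanted PEP lung 2 (adjusted p = 0.294) or without PEP lung 1, 5 or 6 of those with no implant, and with equal array weights (adjusted p = 0.0528). In Air lungs 1 of 26 was called, lower, against 6.91% in either direction and 2.15% lower. It was Bub1, at 5.71, 5.25, 4.41 and 5.07 with implant, against 5.84, 6.01, 5.59, 5.99, 5.60 and 5.57 without (-0.61 ± 0.18, adjusted p = 0.0288). These lungs overlapped. The call ended without implanted Air lung 3 (adjusted p = 0.181) or 4, or without Air lung 1, 2 or 4 of those with no implant.

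The fit of all genes called 2 members in PEP lungs, with Kif11 added (adjusted p = 0.0491), and 2 in Air lungs, with Kif23 added (adjusted p = 0.0468), of 31 in each, where 4.68% and 6.53% of all genes were called. Every implanted lung lay below every other lung of day 21 in its arm for 3 members in PEP lungs (Ccne2, Plk1 and Tpx2), where 2.73% of all genes did. In Air lungs that held for 1 member, Racgap1, at 4.66, 4.86, 4.83 and 4.74 with implant, against 5.19, 4.92, 4.89, 5.11, 5.27 and 5.07 without, where 2.84% of all genes did.

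**Figure D5:**
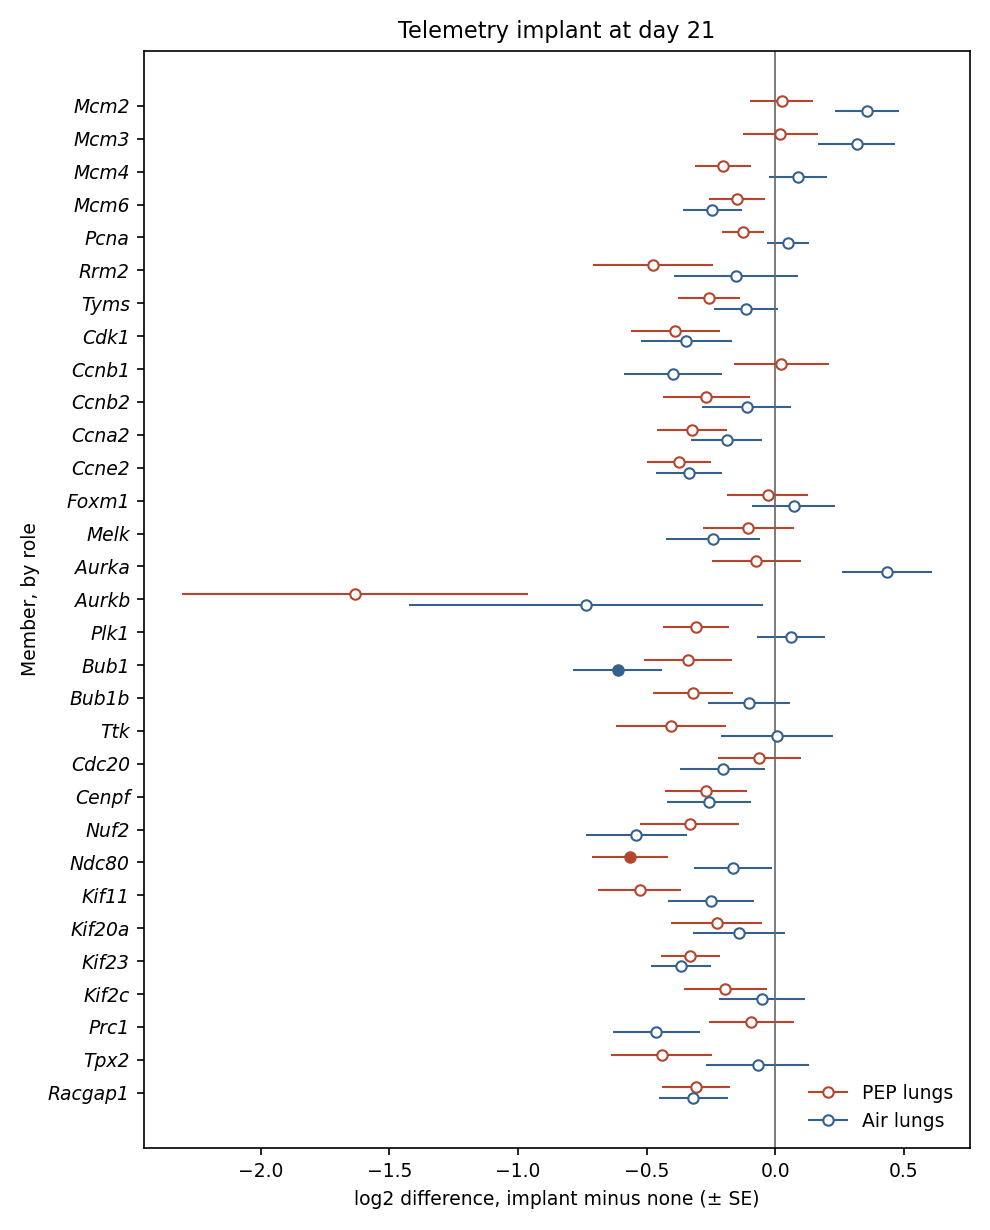
Log2 difference ± SE between implanted and other lungs of day 21 for each of the 31 measured members, in PEP lungs (red, upper of each pair) and Air lungs (blue, lower). Filled dots had an adjusted p below 0.05 in the fit of 8202 genes (Ndc80 in PEP and Bub1 in Air lungs), and 28 members in PEP and 23 in Air lungs lie left of 0.

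Further genes of the same pathways were taken from lists of pathway membership and counted in the fit of all genes. These lists were chosen with earlier results of these data known, so their shares are not an independent test. Of 41 measured further genes of mitosis 11 fell and 0 rose between day 1 and day 21 in PEP lungs, and 21 fell and 0 rose in Air lungs, against 5.15% and 11.7% of all genes called lower. Their medians were -0.28 and -0.37. Kif20b, Iqgap3 and Cep55, which act in the last steps of cell division, differed by -0.49 ± 0.10, -0.40 ± 0.13 and -0.25 ± 0.12 in PEP lungs, of which Cep55 did not pass (adjusted p = 0.226), and fell by 0.56 ± 0.10, 0.76 ± 0.13 and 0.62 ± 0.13 in Air lungs. With implant 5 fell in PEP and 3 in Air lungs, against 1.96% and 2.17% of all genes.

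Of 25 further replication genes 2 fell and 0 rose in PEP lungs, and 4 fell and 1 rose in Air lungs, where 5.15% and 11.7% of all genes were called lower and 1.66% and 7.49% higher. Clspn, an adaptor of the replication checkpoint, fell by 1.31 ± 0.26 in PEP and 1.23 ± 0.26 in Air lungs. Uhrf1, which helps to copy DNA methylation, was at -0.44 ± 0.16 in PEP lungs (adjusted p = 0.0752) and fell by 0.60 ± 0.16 in Air lungs. Rrm1, the large subunit of ribonucleotide reductase, was at -0.05 ± 0.08 and 0.004 ± 0.08, beside the fall of its partner Rrm2 in both arms.

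Of 6 measured G1 cyclins, kinases and E2F or MuvB factors 0 were called in PEP and 0 in Air lungs by limma, and 3 in PEP and 0 in Air lungs had an unadjusted p below 0.05 (21.4% and 31.9% of all genes). Among them Ccne1, cyclin E1, was at -0.29 ± 0.14 and -0.12 ± 0.14, and Mybl2, which helps to switch on G2 genes, at -0.43 ± 0.16 and 0.28 ± 0.16. Of 13 cell cycle inhibitors 2 fell and 0 rose in PEP lungs, and 3 fell and 1 rose in Air lungs. Of all genes 5.15% and 11.7% were called lower and 1.66% and 7.49% higher. Cdkn2b, the p15 inhibitor of G1 kinases, fell by 0.79 ± 0.17 in PEP and 1.12 ± 0.18 in Air lungs. Tob1, an antiproliferative factor, was at 0.05 ± 0.12 in PEP lungs and rose by 0.35 ± 0.12 in Air lungs (adjusted p = 0.0377).

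Between lungs of the same group the members varied together only in part. With group means removed, the median correlation over 465 pairs of members was 0.16, and that of a member with the mean of the others 0.34. Kif11, Tpx2 and Mcm3 had the highest, 0.62, 0.62 and 0.57. For 14333 genes outside the lists the median correlation with the member mean was 0.028. Those most like the member mean were Hjurp, a chaperone of the centromere histone (0.548), Dbnl (0.545), Hcrtr2 (0.543), Rcc1l (0.542) and Col6a1, a collagen VI chain (0.541). They were followed by Lmnb1, lamin B1 (0.540), Zfp367 (0.534), Bzw1 (0.533), Loxl2, a collagen crosslinking enzyme (0.530), and Chst7 (0.519). These 50 points share arrays and normalization, and the values are a description.

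Marker lists of other cell types also moved between days 1 and 21, and their part in the members' differences was not tested. In the fit of all genes 5.15% were called lower and 1.66% higher in PEP lungs, and 11.7% and 7.49% in Air lungs. Where limma called 0 of a list in PEP lungs, 3 of the neutrophil genes had an unadjusted p below 0.05 (21.4% of all genes). None of the T cell, cardiac and ciliated cell genes had. Of 8 fibroblast and matrix genes 6 fell in PEP and 7 in Air lungs. The list mean was 8.97 to 9.27 in PEP lungs of day 21, against 9.64 to 10.17 at day 1, and 9.02 to 9.37 in Air lungs of day 21, against 10.004 to 10.19 at day 1. Of 4 erythroid genes 2 fell in PEP and 2 in Air lungs. Of 10 T cell genes 0 were called in PEP lungs (median 0.02) and 8 fell in Air lungs (median -0.51). Of 8 neutrophil genes 0 were called in PEP and 6 fell in Air lungs. Of 6 cardiac muscle genes 0 were called in PEP and 5 rose in Air lungs, where the list mean was 4.02 to 8.45 at day 21 and 3.73 to 4.91 at day 1. Of 4 ciliated cell genes 0 were called in PEP and 4 rose in Air lungs. Of 10 circadian clock genes 4 rose and 3 fell in PEP lungs, and 5 rose and 3 fell in Air lungs.

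With implant some leukocyte genes rose, and their part was likewise not tested. Of all genes 2.72% were called higher in PEP and 4.36% in Air lungs. Of 10 T cell genes 2 rose in PEP and 8 in Air lungs, with medians of 0.39 and 0.92. Of 8 NK cell genes 2 rose in PEP and 3 in Air lungs, and of 5 B and plasma cell genes 0 and 2 (2 and 4 at an unadjusted p below 0.05, where 19.7% and 22.4% of all genes were). Of 8 fibroblast and matrix genes 1 rose and 1 fell in PEP lungs, and 4 fell in Air lungs.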

How the data were processed

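RNA of 50 lung samples was measured on Affymetrix Rat Gene 2.1 ST arrays. The deposited table held log2 values of 36685 probe sets, which the authors made by robust multi-array averaging (RMA) with oligo in R 3.4, per the submitters' processing notes. RMA forces one distribution on all arrays and compresses dim signals, so differences of dim genes are understated. Ttk, Melk, Kif2c and Bub1b averaged 4.33, 4.10, 4.18 and 4.41 over the 50 lungs, below the array medians of 4.92 to 5.11. The calls of Ttk, Melk and Kif2c thus rest on dim signal. Arrays carry no read depth, and their number limits the precision. Otherwise levels of different probe sets were not compared.

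Probe sets with 1 annotated gene were named (14824; 829 had several genes and 21032 none), and the brightest set stood for a gene. The 2 sets each of Mcm3 and Ccnb2 correlated at 0.463 and 0.413 over the arrays. Following the study's methods, limma 3.58.1 in R 4.3.3 fitted 10 group means with array weights (0.59 to 1.71) and empirical Bayes moderation to 8202 genes with a variance of at least 0.05, and for members under that limit to all 14557 genes. Tests were two-sided, with Benjamini-Hochberg adjustment over every gene fitted. Differences are given ± SE and levels ± SD. Differences are weighted and can depart from those of the printed means. The fit was tested on simulated data. Alternatives changed the filter, weights, moderation, centring, probe sets, samples and replicate block.

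Members and lists were chosen with earlier results of these data known. Members given in full were a spread over the roles, the 6 with the smallest p over Air days, and those with the smallest p among the called, or nearest to a call, in each comparison. Up to 3 genes were named per pathway list, by p over Air days. Mcm2, Mcm3, Mcm4, Pcna, Ccnb2, Ccne2, Kif2c, Nuf2, Prc1 and further named genes outside this rule were added after their values were seen. The other marker lists (alveolar type 1 and type 2, endothelium, airway secretory, alveolar macrophages, thymocytes, germinal centre B, hepatocytes, mesothelium and, over days, B and NK cells) had at most 2 calls between days 21 and 1 in an arm.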

Additional observations from a re-analysis of the deposited data

Results flagged for a closer look

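In 160 sets of lungs (each a gene, or the member mean, in 1 of the 10 groups), 4 had 1 lung far from the others by Dixon's test, where chance alone gives about 1 in 20. Cdk1, the mitotic kinase, was at 5.83 in PEP lung 2 of day 5, and the nearest of the other lungs was at 5.40. Mcm6, the helicase subunit, was at 5.96 in Air lung 2 of day 21, and the nearest other lung was at 6.38. Tpx2, the spindle assembly factor, was at 5.34 in implanted Air lung 2, and the nearest was at 4.79. Ccnb1, cyclin B1, was at 5.08 in implanted PEP lung 1, and the nearest was at 4.76.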

How the results depend on the processing

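Counts of called members depended on the filter. With no variance filter they were 12 over Air days, 1 between days 21 and 9 in PEP lungs and 2 in Air lungs, and 2 and 2 with implant in PEP and Air lungs. With a filter on level they were 4 and 14 over PEP and Air days, 1 and 6 between days 21 and 9, and 4 and 2 with implant. All genes called were then 1153 and 2769 over days, 291 and 2119 between days 21 and 9, and 925 and 872 with implant, where the variance filter gave 395, 1516, 104, 822, 312 and 567. Centred arrays and all probe sets each gave 1 between days 21 and 9 in PEP lungs (141 and 108 of all genes called). These alternatives test other genes, and why single calls moved was not tested. Leaving out 1 lung gave 1 to 4 over PEP days, 5 to 10 over Air days, and 2 to 6 and 7 to 12 between days 21 and 1. No count over all genes is set beside the range over Air days or the upper ends between days 21 and 1. These ends do not show whether the members moved apart from all genes. Between days 21 and 9 leaving out 1 lung gave 0 to 1 in Air lungs. The 1 came without Air lung 5 of day 9 (614 of all genes called) or Air lung 1 of day 21 (625). With implant it gave 0 to 1 in PEP and 0 to 3 in Air lungs. The 3 came without Air lung 5 with no implant (432 of all genes called). Counts of 0 came with 155 to 292 of all genes called in PEP and 469 and 539 in Air lungs. Aurkb between days 21 and 1 in Air lungs ranged from -0.072 without Air lung 3 of day 21 to 0.63, a change of sign. The median difference of the 31 members between days 21 and 1 ran from -0.35 to -0.28 in PEP and -0.38 to -0.25 in Air lungs over all alternatives run, and that between PEP and Air lungs ran from -0.023 to 0.048 at day 1, -0.078 to 0.012 at day 5, -0.052 to 0.045 at day 9, -0.011 to 0.126 at day 21 and -0.105 to 0.004 with implant. The calls of Ccna2 and Plk1 between days 21 and 1 held in both arms in every alternative run.

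Deviations of same-numbered PEP and Air lungs correlated at 0.015 to 0.077 at day 1 (mean 0.029, against -0.007 for different numbers). At day 21 they correlated at 0.05 to 0.29 (mean 0.173, against -0.034), and 3 of 6 correlated best with their own number. The means were -0.012 against 0.003 at day 5, -0.018 against 0.005 at day 9 and -0.154 against 0.051 with implant. Same-numbered lungs were thus more alike at day 21 but not at days 5 and 9 or with implant. The main fit has no term for the number. With the replicate block the counts were 1 over PEP days and 2 with implant in PEP lungs (328 and 268 of all genes). Between days 21 and 1 they were 4 in PEP and 11 in Air lungs (530 and 1687 of all genes). The main fit called 395, 312, 568 and 1725 of all genes. Between PEP and Air lungs the block gave 0 members at every day and with implant. All genes called there were 3, 0, 0 and 25 at days 1, 5, 9 and 21, and 1 with implant. The PEP calls between days 21 and 1 that were not made with the block were those of Rrm2 and Ttk (adjusted p = 0.0637 and 0.0629).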
